A study of Mus musculus with 9 samples.

Results

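The 500 genomic regions with the strongest TWIST1 signal shared by every overexpressing library were examined, out of 10168 regions that met the conditions for ranking. TWIST1 occupancy had been mapped by chromatin immunoprecipitation and sequencing (ChIP-seq) in mouse embryonic stem cells grown as embryoid bodies for 3 days with 16 h of doxycycline. The overexpressing cells (OE) were Twist1-/- cells of the A2loxcre line with a doxycycline-inducible Flag-Twist1. Control cells (KO) were Twist1-/- cells that had no cassette and also got doxycycline, and all samples were labelled C57BL/6. Of 9 libraries, 4 from OE and 2 from KO cells were precipitated with an antibody to TWIST1, 1 was input DNA of KO cells, and the 2 inputs of OE cells were not analysed here. All TWIST1 in the OE cells came from the cassette, in cells without the endogenous protein, so the level need not be that of a tissue. The series text speaks of neuroepithelial differentiation while the samples are labelled embryoid bodies, and a peak list holds no marker expression by which the cells could be checked.

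Members were chosen by measured values. Peaks of the 4 OE libraries on chromosomes 1 to 19 that shared at least 1 bp were merged into 116734 regions, of which 10738 had a peak in all 4 libraries. A KO ChIP or KO input peak overlapped 570 of them, which left the 10168 kept regions. In each library a region was given the fold enrichment (the peak caller's ratio of reads at the summit to local background) of its peak with the smallest p-value, and this fold was turned into a percentile among the kept regions. The 500 regions with the highest percentile averaged over the 4 libraries are the members, and the other 9668 kept regions serve for comparison. Fold, p-value and peak width of the members are therefore given as descriptions. The lowest members were at Cyth3, Eipr1 and Tmem154, the last with a mean percentile of 93.09. The next regions, at Dlg5 (93.08), Igfbp2 and Fam43b, were left out, so the limit runs through regions of nearly equal strength.

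TWIST1 is a basic helix-loop-helix (bHLH) transcription factor. It binds DNA as a dimer with itself or with widely expressed partners called E-proteins, at short sequences known as E-boxes, in which CA and TG flank a pair of variable bases (CANNTG). It is known for its roles in the neural crest, the cranial mesenchyme, the mesoderm and the limb, and for the loss of epithelial junctions in epithelial-mesenchymal transition.

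Sequence at the summits could be read where a member's summit, the base of highest pileup, lay in a promoter window of the RefSeq table of GRCm38.p6 (250 bases before to 50 after a listed start site). This held for 9 members, at Bmf, Gm33078, Dupd1, Igsf3, Dnmt3l, Anpep, Gse1, Upf3a and C330002G04Rik. In 7 of the 9 (77.8%, exact Clopper-Pearson 95% interval 40.0 to 97.2%, for counting error only) a CANNTG lay within 50 bp of the summit. With the middle of the region in place of the summit the share was 28.6%, of 7 windows. The members with an E-box near the summit are shown because in them the motif can be read at the point of highest signal, and a hairpin is added whose sequence holds the summit of another member. Each promoter line runs 5′ to 3′ on the gene's strand over at most 75 bases on either side of the summit, within the part of the window before the start site, and the hairpin is printed whole. Capitals mark the E-boxes. E-boxes were also searched for in the bases after the start site, which are not printed.
Bmf: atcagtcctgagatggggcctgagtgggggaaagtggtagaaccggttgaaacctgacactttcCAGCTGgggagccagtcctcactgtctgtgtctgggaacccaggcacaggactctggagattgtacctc
Gm33078: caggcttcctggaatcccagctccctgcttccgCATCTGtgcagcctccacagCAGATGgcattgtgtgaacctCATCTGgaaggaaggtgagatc
Dupd1: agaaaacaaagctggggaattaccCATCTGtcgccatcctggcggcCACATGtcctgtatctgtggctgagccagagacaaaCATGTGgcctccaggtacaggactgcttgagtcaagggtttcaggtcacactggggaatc
Igsf3: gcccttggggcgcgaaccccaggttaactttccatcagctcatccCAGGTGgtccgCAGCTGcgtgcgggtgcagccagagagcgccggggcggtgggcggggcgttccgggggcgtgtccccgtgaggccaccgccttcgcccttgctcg
Anpep: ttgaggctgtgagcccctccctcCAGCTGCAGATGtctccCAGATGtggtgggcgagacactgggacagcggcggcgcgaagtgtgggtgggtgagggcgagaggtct
Upf3a: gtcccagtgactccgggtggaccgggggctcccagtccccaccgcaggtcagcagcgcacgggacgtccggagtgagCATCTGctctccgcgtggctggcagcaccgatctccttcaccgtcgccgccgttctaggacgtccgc
C330002G04Rik: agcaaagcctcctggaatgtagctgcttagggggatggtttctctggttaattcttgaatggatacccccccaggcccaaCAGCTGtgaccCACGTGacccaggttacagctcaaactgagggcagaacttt
Mir6406: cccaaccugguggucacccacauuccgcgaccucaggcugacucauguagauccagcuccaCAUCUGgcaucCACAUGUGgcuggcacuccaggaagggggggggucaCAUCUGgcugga

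These stretches lie at chr2:118544588-118544720 (minus strand), chr11:57912013-57912108 (plus), chr14:21714685-21714826 (minus), chr3:101376876-101377026 (plus), chr7:79848353-79848460 (minus), chr8:13785365-13785508 (plus), chr19:23075906-23076037 (minus) and chr11:68220892-68221011 (plus). Bmf encodes a pro-apoptotic BH3-only protein, Anpep an aminopeptidase of the cell surface and Upf3a a factor of nonsense-mediated mRNA decay. Igsf3 is a membrane protein of the immunoglobulin superfamily. The Mir6406 hairpin lies inside Ntn1, the gene of the guidance cue netrin 1. The centre of the nearest E-box was 0.5 bp from the summit at Anpep, 1.5 bp at Gm33078 and 7.5 bp at C330002G04Rik. It was 8.5 bp away at Bmf, 11.5 bp at Upf3a, 16.5 bp at Igsf3 and 17.5 bp at Dupd1. In the Mir6406 hairpin it was again 0.5 bp from the summit, with 4 E-boxes in the printed sequence. Every one of these summits was therefore within 20 bp of an E-box. The window at Dnmt3l, a cofactor of DNA methyltransferases, held no E-box, and at Gse1, a corepressor-associated protein, the nearest was 121.5 bp away.

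The same reading in other promoters gives the background. Where the window held all 50 bp on both sides of the summit, 6 of 7 members (85.7%) had a CANNTG, against 395 of 952 other kept regions (41.5%). The share was 43 of 51 (84.3%) among regions ranked 501 to 2000 and 39.1% from rank 2001 on. It was 27.6% of 203 KO input peaks, and around the middle of all 20084 promoter windows of protein-coding genes it was 33.8%. An E-box centre within 20 bp of the summit was found in 6 of these 7 members, in 24.1% of the other kept regions, in 11.8% of KO input peaks and in 16.2% of promoter middles. CATCTG, which reads CAGATG on the other strand, was within 50 bp in 3 of the 7 members, in 9.87% of the other kept regions and in 5.20% of promoter middles. CAGCTG, which reads the same on both strands, was there in 4 of 7, in 11.1% and in 5.25%. Median GC content of these stretches was 58.4% for members, 74.3% for the other kept regions, 73.3% for KO input peaks and 57.4% for promoter middles, and its part in the shares was not tested. With so few windows these are descriptions of the 9 promoters and not of the 500 regions.

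Pairs of E-boxes with 5 bases between them were found in 3 of the 9 promoter windows. They are CAGGTG and CAGCTG at Igsf3, CAGATG and CAGATG at Anpep, and CAGCTG and CACGTG at C330002G04Rik, all printed above. The Mir6406 hairpin holds one as well. Of 1005 miRNA hairpins 3 (0.299%) held a pair with this gap, and pairs with any other gap from 0 to 20 bases were in 1 to 6. Such a pair was present in 7 of 72 windows (9.72%) with a region ranked 501 to 2000, in 20 of 1272 (1.57%) with a weaker one and in 3 of 292 (1.03%) with a KO input peak. Over all 1344 windows with another kept region it was 2.01% (27 windows), and over all 20084 windows 0.622%. Pairs with any other gap from 0 to 20 bases were found in 6 to 15 of the 1344 windows, so the gap of 5 bases was the most frequent there. In all promoters a 5-base gap was not set apart, with 125 windows against 95 to 201 for the other gaps. The windows compared differ in GC content, whose part in these shares was not tested.

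**Figure D1:**
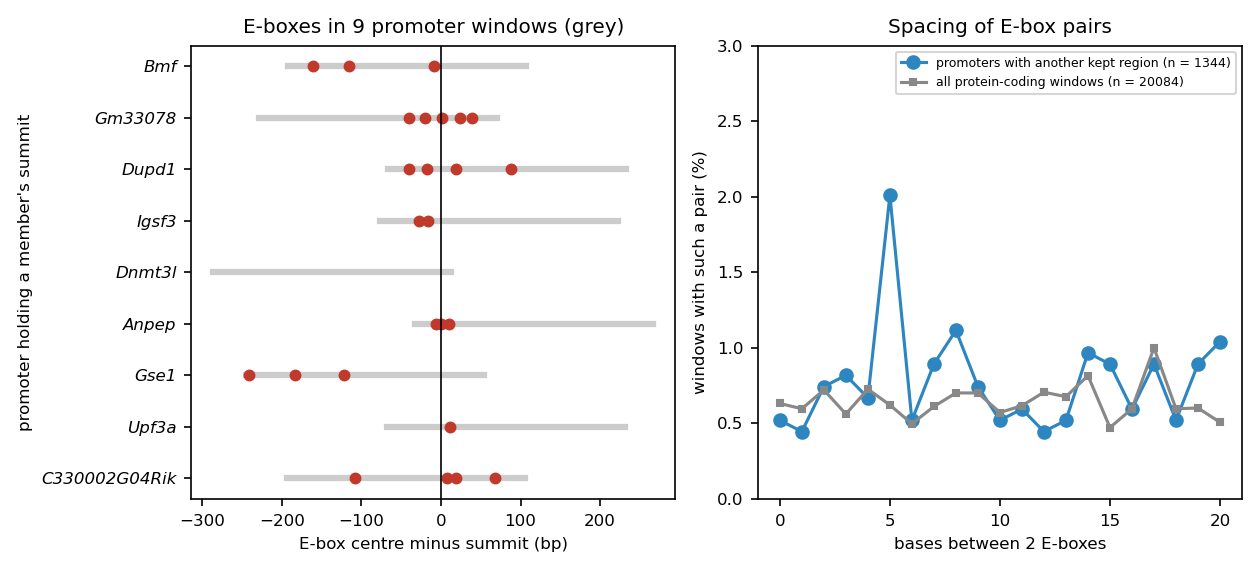
E-boxes in promoters with a summit. The left panel plots the centre of each CANNTG (red points) by its distance from the summit in bp for the 9 promoters that hold a member's summit, with the window in grey. The right panel plots the share of windows (%) with a pair of CANNTG by the bases between them, for 1344 promoters with another kept region and for all 20084, and the former reach 2.01% at a gap of 5.

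Signal at the members was high in every OE library and spanned a wide range. Fold enrichment was 36.4 to 896 in OE 1 (median 78.4), 72.7 to 1699 in OE 2 (median 218), 65.6 to 1699 in OE 3 (median 192) and 26.4 to 576 in OE 4 (median 54.7). The median of the other kept regions was 15.0, 14.7, 13.8 and 10.4 in the same order. The number of reads per library is not stated in the labels or files. The background pileup that fold and p-value together give is printed instead, and it is no direct measure of depth. The commonest background was 1.00 fragments in OE 1 and 1.20 in OE 4, against 5.38 in OE 2 and 5.29 in OE 3. OE 1 and OE 4, and OE 2 and OE 3, are called library sets here; the study does not define them. Their lists held 22388, 106821, 87441 and 14160 peaks for OE 1 to 4, and the KO lists 104, 71 and, for the input, 1774. The median pileup at a member's summit was 158.5, 1392.5, 1210.5 and 122 fragments in OE 1 to 4, against 29, 94, 87 and 22 at the others.

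The control libraries have no peak at any member, because the rule removed such regions. The commonest background was 4.73 and 5.09 fragments in the KO ChIP libraries and 6.46 in the input. At that background a peak as weak as the least significant one listed would have had a fold of 3.66 and 3.61 in the KO ChIP libraries and of 2.95 in the input. The weakest member in OE 2 and OE 3, whose background was closest to theirs, had 72.7 and 65.6. These values describe the lists and test nothing, since the rule fixed both the high OE fold and the lack of a KO peak, and the background at the members themselves was not read in the KO libraries.

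The highest-ranked member lay in Medag, a gene linked to adipocyte differentiation. Its fold was 744, 1699, 1699 and 576 in OE 1 to 4. Next came Camk2n1, whose product inhibits the kinase CaMKII, with a region 1590 bp away and folds of 517, 875, 1126 and 398. The region 1398 bp from Ndc1, a nuclear pore membrane protein, had 896, 833, 762 and 550, and was the highest of all members in OE 1. The region in Kdf1, a regulator of epidermal differentiation, had 600, 830, 904 and 419. These 4 members lay inside a gene or within 1590 bp of it, and the lowest of their folds in any library was 398.

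The next 6 described, from the 25 highest, are at genes whose products act in the nucleus, a grouping made after the names were seen. The region in Casz1, a zinc finger factor, had 343, 964, 1113 and 341. The region 393 bp from Sox12, a SoxC factor of progenitor cells, had 506, 808, 824 and 307. The region 74271 bp from Tfcp2l1, a factor of naive pluripotency, had 247, 837, 1002 and 163. The region 81511 bp from Tbl1xr1, a subunit of the NCoR and SMRT corepressor complexes, had 327, 699, 766 and 223. Bahcc1, a chromatin protein with a BAH domain, held a region with 248, 1007, 910 and 212. Cbfa2t2, a corepressor of the ETO family, held a region with 270, 608, 555 and 197. In all 6 both OE 1 and OE 4 were below both OE 2 and OE 3, as in 452 of the 500 members. The order was the opposite in 17 members. These orders were not counted in the other kept regions, whose median folds were 15.0, 14.7, 13.8 and 10.4 in OE 1 to 4. Whether the counts set the members apart was therefore not tested.

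Further members of the 25 highest are described with their genes, in no order of rank. The region in Tns1, the focal adhesion protein tensin 1, had 333, 1057, 1057 and 234. The region in Lama3, the laminin alpha 3 chain of basement membranes, had 260, 687, 676 and 180. The region in Vav2 had 270, 807, 1048 and 217. Regions inside Cdc42ep4, an effector of CDC42, and 5234 bp from Chn2, a GTPase-activating protein for Rac, had 229, 895, 993 and 182, and 435, 489, 496 and 289. The region 94289 bp from Stc1, encoding the hormone stanniocalcin 1, had 232, 1149, 991 and 192. Of the others of the 25, those at Igsf9b, Ust and St6galnac3 lay inside the gene. Those with Fut1, Gm28455 and Rps6ka1 as nearest gene were 1048, 5080 and 8828 bp away from it. For Lsm14a, Ehbp1 and Tmem17 the distance was 70003, 85869 and 91336 bp. Ust, St6galnac3 and Fut1 encode enzymes of glycan synthesis. Over the 25 members the folds ran from 163, at Tfcp2l1 in OE 4, to 1699 at Medag.

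**Figure D2:**
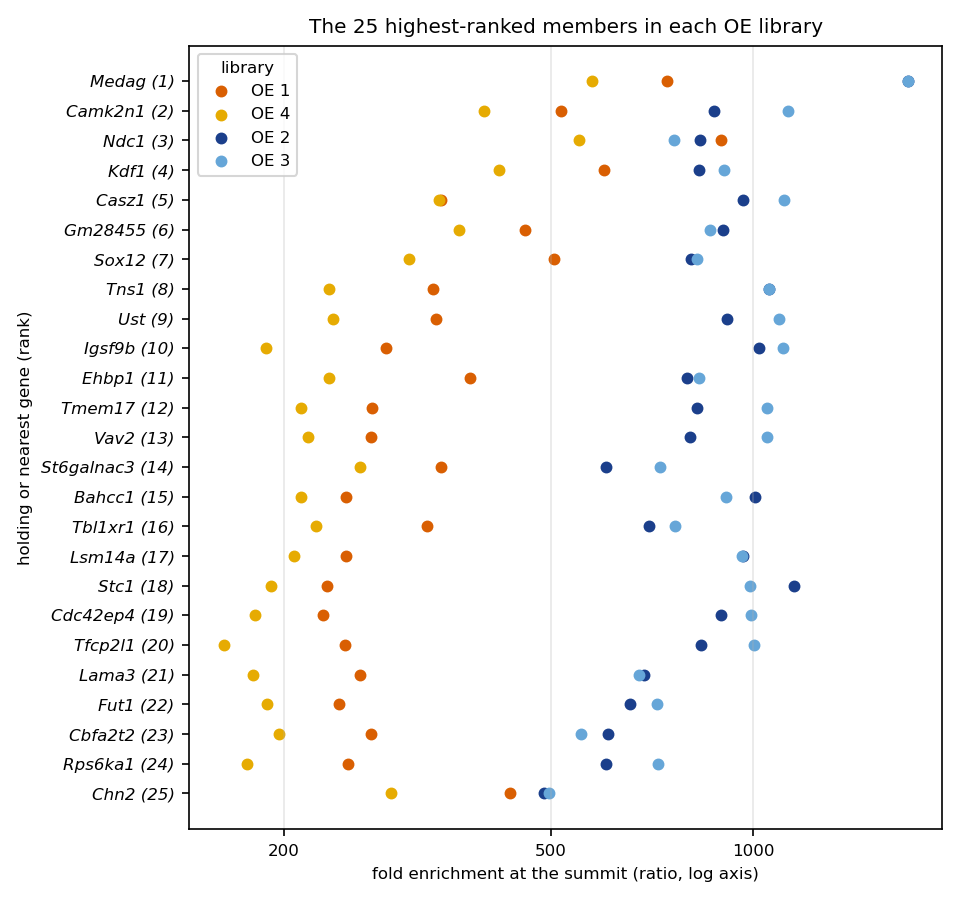
Fold enrichment at the summit (ratio, log axis) of the 25 highest-ranked members in each OE library, 1 point per library, by holding or nearest gene. OE 2 and OE 3 lie to the right of OE 1 and OE 4 for most genes, and at Medag, Tns1 and Lsm14a the OE 2 point is hidden by that of OE 3.

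Reproducibility was read by leaving out a library. The 500 kept regions ranked highest in 3 libraries were looked up in the library not used for that ranking. Of these, 311, 369, 396 and 323 were among the upper 500 of OE 1, OE 2, OE 3 and OE 4. Their median percentile there was 96.1, 97.4, 97.5 and 96.6, and the lowest was 78.2, 75.2, 80.4 and 72.8. None was below the median of the kept regions in the library left out. That library had still helped to choose the kept regions, which need a peak in all 4. The other library of its set also stayed in the ranking, so the reading is not independent. Among the members, 235 were in the upper 500 of all 4 libraries, 71 of 3, 148 of 2, 39 of 1 and 7 of none, and 839 regions were in the upper 500 of at least 1 library.

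Order within the members followed the library sets. Across the 500 members, Spearman's rank correlation of the fold was 0.933 between OE 1 and OE 4 and 0.909 between OE 2 and OE 3, and 0.389 to 0.500 between libraries of different sets. Over all 10168 kept regions it was 0.866 and 0.966 within the sets and 0.168 to 0.253 between them. These are correlations across regions, which are not independent replicates, and libraries of a set are alike in their commonest background. The members are thus the regions on which both sets placed a high rank, in a collection for which the sets otherwise ranked regions differently.

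Some members stood much higher in one set. Igsf3, whose E-box pair is shown above, had a fold of 440, 82.8, 82.5 and 324 in OE 1 to 4, so that OE 1 and OE 4 were both far above OE 2 and OE 3. The region 10172 bp from Poteg had 170, 72.7, 74.0 and 77.8, and the region 13530 bp from Lox, which encodes the collagen-crosslinking enzyme lysyl oxidase, had 137, 75.4, 67.5 and 69.5. Regions far from genes, 267499 bp from S1pr1 (a sphingosine 1-phosphate receptor) and 853595 bp from Stim2 (a calcium sensor of the endoplasmic reticulum), had 181, 76.8, 77.9 and 89.0, and 177, 82.4, 69.1 and 85.8. In these 4 regions OE 1 was the library set apart in fold, while OE 4 was closer to OE 2 and OE 3. By percentile all 5 were higher in OE 1 and OE 4. This follows from the choice, since they are the 5 members with the largest such difference.

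The opposite order was found at the neuronal acetylcholine receptor subunit Chrnb2, with folds of 36.4, 290, 219 and 31.3. The region 38394 bp from Psd2 had 36.4, 338, 183 and 30.9. A region inside Chd7, a chromatin remodeller needed in the neural crest, had 38.9, 242, 197 and 29.1. Regions inside Dennd2a and Gtf2a1l had 41.6, 303, 188 and 28.7, and 46.9, 265, 215 and 27.2. In these 5 the values of OE 1 and OE 4 were the lower ones without overlap, as in most members. Their percentiles were lower as well, which follows from the choice of these 5 as the other extreme of that difference.

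**Figure D3:**
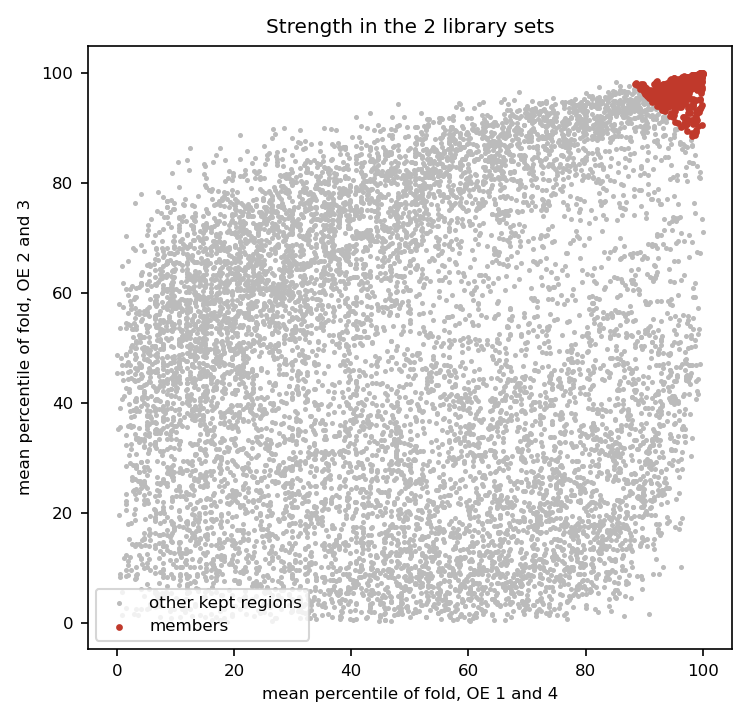
Mean percentile of fold in OE 1 and OE 4 (x axis) against that in OE 2 and OE 3 (y axis), 1 point per kept region. The 500 members (red) fill the upper right corner by construction, and the 9668 other kept regions (grey) are spread over most of the square.

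Summits of the members fell at nearly the same base in every library. A member's 4 summits spanned a median of 22 bp, and 430 of the 500 (86.0%) spanned at most 50 bp, against a median of 97 bp and 33.3% of the other kept regions. More than 500 bp separated the summits of 9 members (1.80%) and of 16.1% of the others. Measured from the median summit of the other 3 libraries, the median distance for members was 11, 7, 8 and 12 bp in OE 1 to 4. For the other kept regions it was 38, 32, 33 and 43 bp. The members' values, 9.5 ± 2.38 bp (SD, n = 4 libraries), did not overlap those of the others, 36.5 ± 5.07 bp. The difference was -27 ± 2.83 bp and negative in 4 of 4 libraries, with a two-sided exact sign-flip permutation p of 0.125, the smallest that 4 libraries allow. The libraries read the same regions, so this test covers only the spread of summit calls between them, and it cannot pass 0.05. With each list limited to the length of the shortest the difference was -6.75 bp. Pileup at the summits was higher in the members, as given above, and its part in the difference was not tested.

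Pairs of libraries showed the same. The median gap between the summits of a member in OE 2 and OE 3 was 4 bp, and it was 11 to 13 bp in the other pairs. For the other kept regions it was 14 bp in OE 2 and OE 3, 25 bp in OE 1 and OE 4, and 48 to 56 bp across the sets. The widest span among members was 4111 bp, in Igdcc4, which encodes a membrane protein of the immunoglobulin superfamily. The strongest member in Gse1 spanned 552 bp.

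**Figure D4:**
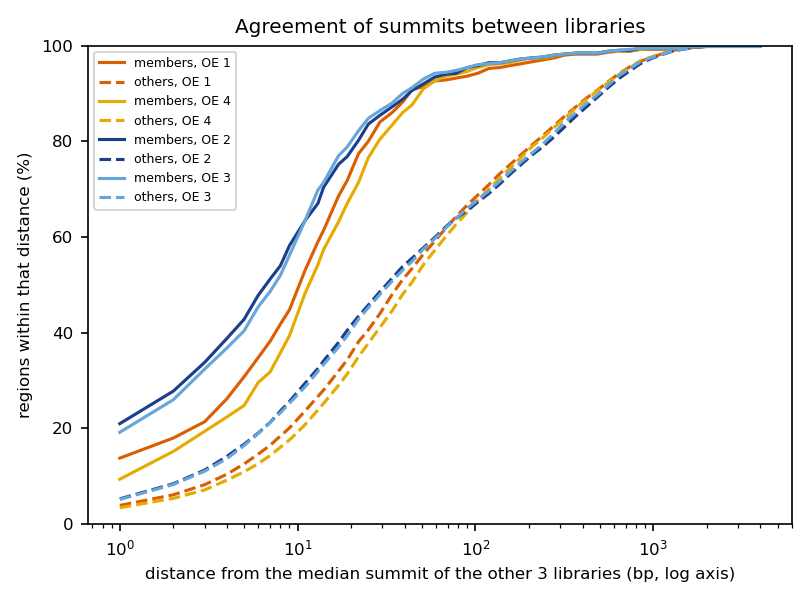
Share of regions (%) whose summit in a library lies within a given distance (bp, log axis) of the median summit of the other 3 libraries. Solid lines are the 500 members and dashed lines the 9668 other kept regions, 1 line per OE library, and the 4 solid lines rise before all dashed ones.

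Members were seldom at gene ends. Only 31 of the 500 (6.20%) had a summit 1 kb or less from the start or end of a protein-coding gene, against 32.5% of the other kept regions and 42.2% of KO input peaks. Deeper inside a gene were 242 members (48.4%), against 34.8% of the others. Another 175 members (35.0%, others 23.5%) lay between genes within 100 kb of one, and 52 (10.4%, others 9.16%) lay farther away. In each library's own summits, 6.0, 6.2, 6.0 and 6.2% of the members were near a gene end, against 32.7, 31.2, 31.3 and 32.5% of the others in OE 1 to 4. The mean was 6.1 ± 0.115% against 31.9 ± 0.767% (SD, n = 4), a difference of -25.8 ± 0.784 percentage points. For the inner parts of genes it was 48.5 ± 0.115% against 35.2 ± 0.548%, a difference of 13.3 ± 0.567 points. Both differences had the same sign in 4 of 4 libraries and a two-sided exact sign-flip permutation p of 0.125, again the smallest possible and with the same limit.

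The size of these differences depended on the libraries. Ranked by OE 1 and OE 4 alone, the strongest 500 differed from the rest by -9.33 points at gene ends and 4.19 points inside genes. Ranked by OE 2 and OE 3 alone, the differences were -28.1 and 14.1 points. Of the upper 500 of each library alone, 22.6% in OE 1 and 20% in OE 4 were near a gene end, against 4.20% in OE 2 and 4.60% in OE 3. With equal list lengths the differences were -6.54 and 6.07 points, and with regions defined by summits within 100 bp they were -12.6 and 8.83 points. The sign was the same in each of these.

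The share near gene ends rose step by step down the ranking. It was 3.00% for the first 100 members and 7% for the other 400, then 10.0% for ranks 501 to 1000, 15.5% to rank 2000, 27.4% to rank 4000, 35.5% to rank 7000 and 41.9% below. Start sites listed in the promoter table gave a similar picture where the table has entries. A start site lay within 1 kb of 26 of 473 members (5.50%) and of 2776 of 9378 other regions (29.6%), both lower bounds because the table is not complete. The other regions near a start site had a median percentile of 58.0 in OE 1 and OE 4 and of 23.2 in OE 2 and OE 3. For the 26 members these medians were 97.3 and 94.1, and for the 447 members farther away 96.5 and 97.6.

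**Figure D5:**
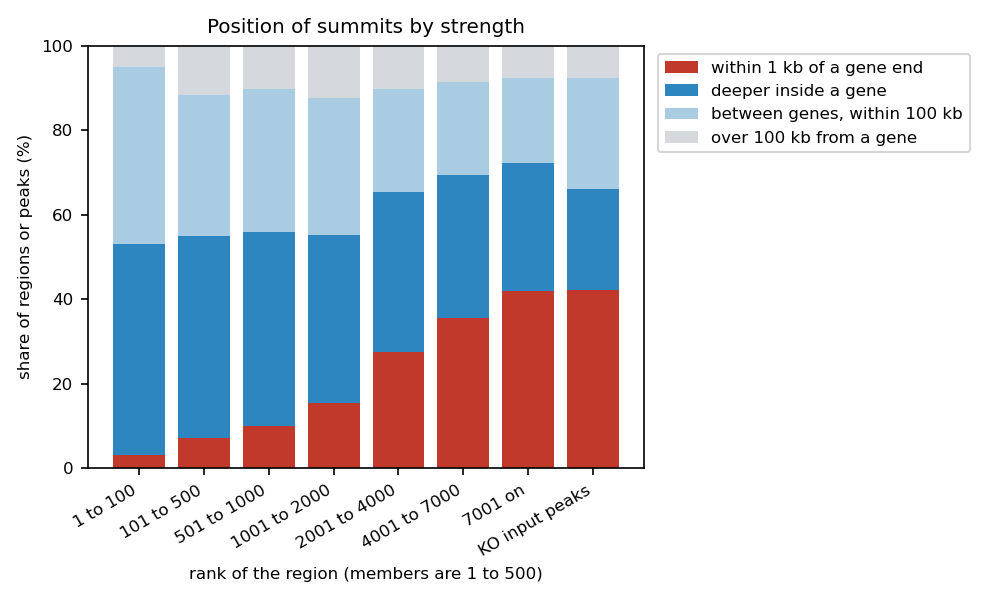
Share of regions (%) by position of the summit, in bins of rank, with KO input peaks at the right; members are ranks 1 to 500. The red part, within 1 kb of a gene end, grows from 3.00% in the first 100 to 41.9% in the last bin and is 42.2% in KO input peaks.

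The 31 members near gene ends included well-known genes. Sox12 was the highest of them. The region 426 bp from Lefty1, a secreted antagonist of Nodal signalling, had folds of 59.9, 108, 164 and 49.9. Others were at Rcor2 (a subunit of a histone demethylase complex), Nid2 (the basement membrane protein nidogen 2), Hic1 (a zinc finger repressor) and Deaf1. Members were also wider than other regions, with a median of 2026.5 against 1106 bp, a description, since width comes from the same calls as the rule. Of the members inside genes, the 242 lay in 226 genes with a median length of 105 kb. The median was 94.7 kb for the genes holding the other inner regions and 17.5 kb for all protein-coding genes. Long genes can hold more inner regions, so the value for all genes is no like comparison. Among the members over 100 kb from a gene was one 330228 bp from Shh, which encodes the Hedgehog ligand, with folds of 389, 204, 204 and 250 in OE 1 to 4.

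Genes with a member numbered 423, which is 2.05% of 20661 protein-coding genes on these chromosomes, counting the gene that holds the summit or else the nearest within 100 kb. A kept region of any rank was assigned to 30.9% of the genes. A single member was found for 403 of the 423, and 20 had more. Gse1 had 4 members among its 19 kept regions, with folds in OE 1 to 4 of 220, 137, 202 and 251 for the strongest. Cbfa2t2 had 3 of 6, Nav1 (a microtubule-associated protein of neuronal migration) 3 of 8 and Msi2 (an RNA-binding protein of stem cells) 3 of 7. St6galnac3, Btbd11, Ermard, Iffo2, Sipa1l3 and Heg1 had 2 each. Long genes can hold more regions, and gene length was not adjusted for.

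Members sometimes lay close to each other. Of 481 gaps between neighbouring members on a chromosome, 14 were under 20 kb and 32 under 100 kb, with a median gap of 2268068 bp. Gaps were not counted for other kept regions, so these numbers do not show whether members cluster. The closest were 5240 bp apart at Ifitm7, 5715 bp at Id1 and 6035 bp in Cbfa2t2. Between Fgf4 and Fgf15, which are neighbours on chromosome 7, a pair of members lay 11966 bp apart. By chromosome, members were 2.64% of the kept regions on chromosome 12 and 8.52% on chromosome 18, the lowest and the highest share. Chromosome 2 had the largest number, 52.

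Members near genes of 16 lists were then read by role. The lists were drawn up with earlier results of these data known and hold 331 matched genes, of which 26 (7.85%) had a member. That stands beside 2.05% of all genes. Among genes with a kept region it was 26 of 215 listed genes (12.1%), beside 6.63% of all such genes, and no test was made, since the lists were chosen with results known. Cell migration and guidance had the most, with 6 of 27 genes. Epha3, an ephrin receptor, held a member with folds of 157, 232, 238 and 102 in OE 1 to 4. Efna5, an ephrin ligand, held one with 92.0, 426, 361 and 73.6. The member in Ntn1 had 73.4, 260, 232 and 52.2. The receptor Ephb2 had 92.8, 131, 162 and 69.5, the ligand Slit1 64.6, 149, 167 and 49.1, and its receptor Robo1 44.4, 181, 134 and 29.5. All 6 were inside the gene, and both ligands and receptors were among them. Of all members 48.4% lay deeper inside a gene, and gene length was not adjusted for.

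Among bHLH partners and inhibitors 2 of 20 genes had a member. Id1, an inhibitor that binds E-proteins, had a pair, and the stronger, 6470 bp away, had 106, 380, 352 and 83.1. The weaker, 12185 bp away, had 118, 102, 88.2 and 116, so its order across libraries was the reverse. Bhlhe41, a repressor of the same protein class, held a member with 190, 126, 148 and 168. In Notch signalling 2 of 22 had a member. These were the receptor gene Notch1, 13339 bp away with 75.9, 313, 227 and 49.0, and its target Hes1, 88354 bp away with 67.9, 147, 158 and 41.8.

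Neural and neural crest genes each gave 2. In the neural list (22 genes) they were Sox12, given above, and Sox11, 14979 bp away with 44.9, 156, 149 and 30.3. In the neural crest list (18 genes) they were Sox9, 1082 bp from a gene end and inside the gene with 101, 317, 281 and 77.2, and Sox5, inside the gene with 91.3, 264, 265 and 47.7. The SoxC, SoxE and SoxD groups were thus represented by members. Of 24 mesenchyme and epithelial-mesenchymal transition genes, 16 had a kept region and none a member. Over all genes with a kept region 6.63% had a member, so none among so few is near the background.

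In the pluripotency list 3 of 20 genes had a member, Tfcp2l1, Lefty1 and Fgf4, and the last lay 11604 bp away with 46.4, 187, 227 and 26.8. FGF signalling had 2 of 20. The ligand gene Fgf15 had a member 7717 bp away with 182, 496, 536 and 145, and Spry4, an antagonist of receptor tyrosine kinase signalling, had one 1998 bp away with 80.9, 326, 236 and 75.8. WNT signalling had 1 of 25, the receptor Fzd1 at 67182 bp with 62.9, 229, 147 and 32.7. The Hedgehog pathway had 1 of 14, the transcription factor Gli2 with 76.9, 144, 107 and 49.0. For BMP and TGF-beta signalling the number was 0 of 24, of which 15 had a kept region, again near that background.

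Chromatin regulators had 3 of 23, Gse1, Chd7 and Zmynd8, a reader of histone marks, whose member 10932 bp away had 270, 414, 314 and 169. Epithelial junction genes had 2 of 19. Cldn1, a tight junction protein, had one 39089 bp away with 569, 410, 404 and 318, and the keratin gene Krt18 one 9988 bp away with 97.2, 326, 302 and 63.3. Mesoderm and heart genes (0 of 20), endoderm and liver genes (0 of 18) and ribosomal protein genes (0 of 20) had no member. A kept region of any rank was assigned to 8, 5 and 5 of these, and to 5 to 20 genes of each of the 16 lists. Over all genes with a kept region 6.63% had a member, so none among the 8, 5 and 5 is again near the background.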

How the data were processed

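The submitters' processing notes name the tools Trimmomatic, BWA, Picard and MACS2 and the builds mm10 and GRCm38.p5. No source used here gives their versions or settings, or the control for peak calling, which can change the peaks listed and their fold. The deposited files are MACS2 peak lists called per library. In them the authors' caller gives each peak a fold over local background (a linear ratio), -log10 of the p-value and q-value, a score used only to check the layout, and a summit. All are the authors' values and served for description and for ranking inside each list.

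Python 3.11.15 with pandas 2.3.3, numpy 2.4.6 and scipy 1.17.1 was used, and matplotlib 3.10.9 for figures. Groups came from the sample titles. Coordinates count from 1 on mm10, and sequences and 20661 protein-coding genes of chromosomes 1 to 19 came from RefSeq tables of GRCm38.p6, a patch release that keeps mm10 coordinates on these chromosomes. The gene table has no strand or exons. Start sites and promoter windows were used for 16456 genes, with none on chromosome 18. A region's position is the median of its 4 summits. Pileup and background are the whole number of fragments and the level that give a peak's fold and p-value. To both 1 was added, as the caller does. Pileups were whole within 0.05 for all kept regions in the 4 OE libraries. In the KO lists they were whole for 88.5 and 87.3% of the ChIP peaks and 98.3% of the input peaks. The commonest KO backgrounds come from those peaks only.

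The members, gene lists, tests and alternatives were chosen with earlier results of these data known. Sign-flip tests run over all 16 sign patterns of the 4 libraries. The series text calls the replicates biological, but the p-values here cover no more than how these libraries vary. No genome was used here, so the planned test of CANNTG at all summits was replaced by a description of promoter windows (both strands; windows with the full 50 bp on each side for shares). Named genes are those of the 25 highest members, the 10 genes with most members, up to 3 genes per list, 3 regions on each side of the limit and the 5 members at each extreme of the difference between library sets; other names were chosen after their values were seen. Alternatives covered the ranking value, the overlap, the q-value limit, list length, the number of members, distances and each replicate left out. The procedures were tested on simulated data.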

Additional observations from a re-analysis of the deposited data

Results flagged for a closer look

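In 4 members OE 1 lay far from the other 3 OE libraries in fold enrichment. These were the regions at S1pr1 (181), Stim2 (177), Poteg (170) and Lox (137), where the other libraries had values between 67.5 and 89.0. The gap to the nearest library, divided by the range, was above Dixon's 95% critical value for 4 samples. This was checked for 76 sets of 4 values, and chance alone sets apart about 1 in 20. The regions at S1pr1, Stim2, Poteg and Lox were also chosen for their difference between library sets, so these values are no independent sign of it.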

How the results depend on the processing

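The differences for summits, gene ends and inner parts of genes kept their sign in every setting. The counts of members and genes and the CANNTG share have no sign that could reverse. Taking the strongest 250 or 1000 regions gave 217 or 817 genes with a member, which follows from the number of regions taken. The share of promoter windows with a CANNTG was 100% for the strongest 250, with a single window. It was 28.6% when the middle of the region stood for its position. That is below the 41.5% of other kept regions at their summits, though only windows with the full 50 bp on each side were counted there. Leaving out each OE replicate gave 471 to 474 of the 500 members, 420 to 426 genes, a difference of -26.1 to -18.5 points near gene ends (-18.5 without OE 4), of 10.6 to 12.8 points inside genes, of -35 to -24.3 bp for summits and a CANNTG share of 85.7 to 91.7%. With 3 libraries the smallest exact permutation p is 0.25. Other planned rankings shared 471 to 500 members with the list used. The ranking by single library sets and the upper 500 of each library were added after seeing the data. No paired analysis was possible because no test set groups with shared replicate numbers against each other; the sign-flip tests pair members with other regions inside each library. Background was lower in OE 1 and OE 4, and whether this limits what their lists show of weak regions was not tested. With 9 promoter windows the sequence shares are imprecise.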
